A study of Rattus norvegicus with 3 samples.

Results

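Fc receptors and the phagocyte oxidase were described as a group of 9 genes of the retinal expression table. They were taken from it by gene symbol alone and make up 9 of its 18425 genes. The Fc receptor genes are Fcgr1a, Fcgr2b, Fcgr3a and Fcer1g, and the oxidase genes are Ncf1, Ncf4, Cyba, Cybb and Rac2. Fc gamma receptors bind the constant part of IgG on coated particles. The activating receptors signal through the gamma chain Fcer1g, whose tyrosine motif recruits the kinase Syk, and Fcgr2b opposes them through an inhibitory motif. The phagocyte NADPH oxidase makes superoxide at the membrane of the phagosome. Its membrane core is the pair of Cybb, the catalytic gp91phox, and Cyba, p22phox, and on activation cytosolic subunits, among them those encoded by Ncf1 and Ncf4, and the GTPase Rac2 join them. In nervous tissue such as the retina these genes are known mainly from microglia and macrophages, while Cyba is also used by other oxidases and other cells.

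RNA came from retinas of wild-type Sprague Dawley rats, collected on postnatal day 4 (P4) after an intravitreal injection of 1 µl on P1. The Buffer library is from eyes given citrate buffer at pH 4.5, the Saline library from eyes given saline, and the STZ library from eyes given 10 µg of streptozotocin (STZ), a DNA-alkylating glucosamine-nitrosourea dissolved in that buffer. There was 1 library per condition, and the sex, the litter and the number of pups behind each library are not given in the sources used here. In the functional and histological experiments the study gave STZ to the right eye and buffer to the left eye of one animal, so the STZ and Buffer libraries may share animals, but whether they do is not given for the sequenced retinas. Treatment, animals and dissection cannot be told apart in any comparison, no difference has a replicate check, and no p-value was computed.

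The libraries were alike in depth, with 21992702 reads assigned to genes in Buffer, 21977843 in Saline and 22031249 in STZ. All 16 retina markers examined, such as Pax6 and Crx, had reads in every library, with sums between 63489 and 65423. Lens and pigmented tissue differed between libraries. Lens crystallins, 15 genes, had 288 reads in all with Buffer, 808 with Saline and 4942 with STZ, and 14 pigment and ciliary epithelium markers had 10415, 17000 and 9021. Of the latter sums, 6996, 6571 and 5501 reads were from Rlbp1 alone. Over the 10 of these markers with a mean of at least 10 reads, the median log2 fold change, defined below, was 1.19 for Saline to Buffer. It was -0.02 for STZ to Buffer and -1.18 for STZ to Saline. The part of these differences in the results on the 9 genes was not tested.

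Of the 4 Fc receptor genes, 3 were higher in the STZ library than in Buffer by the rule of the study, a ratio of (FPKM + 1) above 1.54, and 0 were lower, with a ratio below 0.65. Among all genes, 2.25% were higher and 1.04% lower in that comparison. FPKM relates the fragments of a gene to its transcript length and to library size. Because adding 1 pulls the fold of a weakly expressed gene toward 1, the ratio of the gene's shares of all reads is given beside it, with an exact 95% interval that covers counting error only. Fcgr3a, a low-affinity activating IgG receptor (CD16), was counted with 25 reads in Buffer, 19 in Saline and 159 in STZ, or 1.16, 0.92 and 7.27 FPKM. STZ stood far above both controls, which overlapped each other in their counting intervals. The fold was 3.83 against Buffer and 4.31 against Saline, and the count ratios were 6.35 (interval 4.15 to 10.1) and 8.35 (5.17 to 14.2).

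Fcer1g, the signaling chain that the activating receptors share, was the most abundant of the receptor genes per length in all 3 libraries. It was counted with 44 reads in Buffer, 68 in Saline and 170 in STZ, which correspond to 4.98, 7.73 and 19.18 FPKM. Saline lay between the others, with a Saline to Buffer count ratio of 1.55 (1.04 to 2.31). The STZ fold was 3.37 against Buffer and 2.31 against Saline, with count ratios of 3.86 (2.75 to 5.5) and 2.49 (1.87 to 3.35). Fcgr2b, the inhibitory receptor, was rarer, with 15 reads (0.59 FPKM) in Buffer, 24 (0.94) in Saline and 51 (1.98) in STZ. Its fold of 1.87 passed the threshold against Buffer, whereas 1.536 against Saline stopped just short of it. The corresponding count ratios were 3.39 (1.88 to 6.5) and 2.12 (1.28 to 3.6).

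Fcgr1a, the high-affinity IgG receptor CD64, was the receptor gene with the fewest reads: 9 in Buffer, 13 in Saline and 13 in STZ. No difference was detectable at this depth. The count ratio of STZ was 1.44 to Buffer (0.57 to 3.82) and 0.998 to Saline (0.426 to 2.34), and the folds were 1.13 and 1. Fcgr2a, Fcgr2b and Fcgr3a are related in sequence, and the methods state that reads mapped to several places were discarded. Fcgr2a nevertheless has fractional counts, whose origin is not given. The single values of these 3 genes are thus uncertain where copies are alike.

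**Figure D1:**
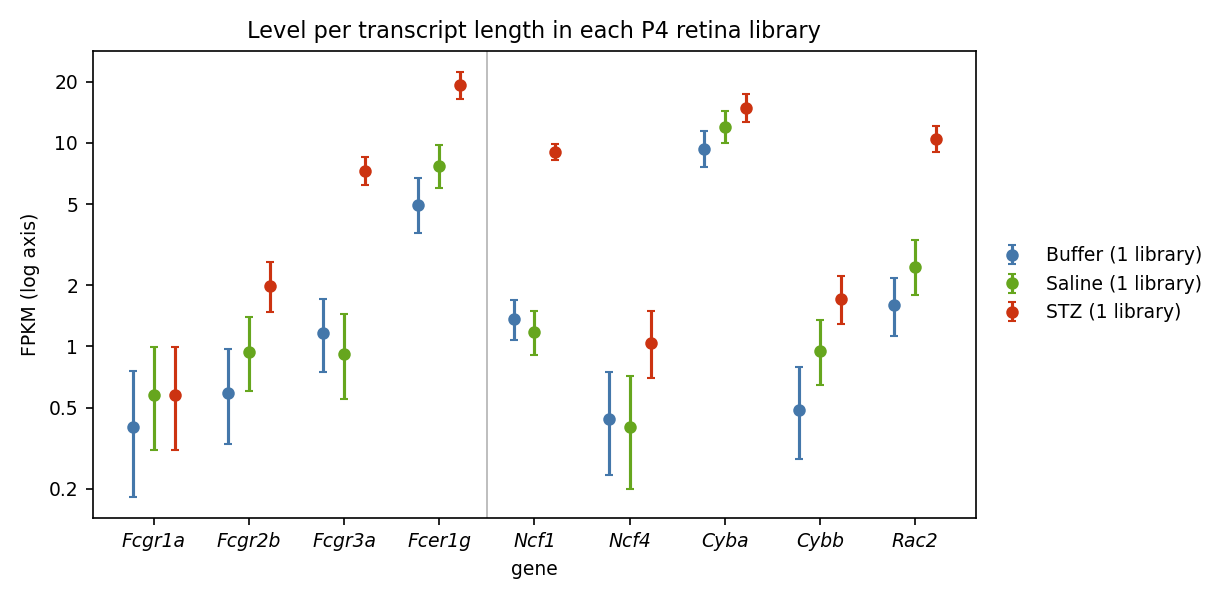
FPKM on a log axis for each of the 9 genes in the Buffer, Saline and STZ libraries. Points are the deposited values of 1 library each and bars are 95% Poisson counting intervals. For Fcgr3a, Ncf1 and Rac2 the STZ point lies above both control intervals by a wide margin, while the Fcgr1a intervals overlap in all libraries.

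Of the 5 oxidase genes, 3 were higher in STZ than in Buffer and 0 were lower. Ncf1 encodes p47phox, the organizer that carries the cytosolic subunits to the membrane. It was counted with 75 reads in Buffer, 65 in Saline and 501 in STZ, at 1.36, 1.18 and 9 FPKM. The controls differed by less than the counting error, at a ratio of 0.867 (0.612 to 1.23), and STZ was far above both. The fold was 4.24 against Buffer and 4.59 against Saline, with count ratios of 6.67 (5.22 to 8.62) and 7.69 (5.93 to 10.1). Ncf1 is the only gene of the 9 with fractional counts, 75.45, 65.3 and 501.01 before rounding, and its interval leaves out the error of that estimation.

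Rac2, the Rac GTPase of blood cells, was counted with 38 reads in Buffer, 43 in Saline and 192 in STZ. Its fold was 4.43 against Buffer and 3.31 against Saline. The FPKM of Rac2, 1.59, 2.47 and 10.47, do not follow the reads in a constant ratio. The transcript length that reads and FPKM imply was 1.09 kb in Buffer, 0.792 kb in Saline and 0.832 kb in STZ, whereas that of Ncf1 lay between 2.52 and 2.53 kb. On reads alone, Saline was 1.13 times Buffer (0.715 to 1.8), and STZ was 5.04 times Buffer (3.55 to 7.34) and 4.45 times Saline (3.19 to 6.35).

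Cybb and Cyba, the membrane core, differed from each other in count ratio beyond counting error for STZ to Buffer, but not for STZ to Saline. Cybb had 16 reads in Buffer, 31 in Saline and 56 in STZ, a stepwise order in which Saline was 1.94 times Buffer (1.03 to 3.8). Its fold of 1.82 passed against Buffer, and 1.39 against Saline did not. The reads of Cyba were 96, 123 and 153, at 9.35, 12.03 and 14.86 FPKM. It was the most abundant of the 9 genes per length in both controls and the oxidase gene whose count ratio to the controls was smallest, 1.59 to Buffer (1.22 to 2.08) and 1.24 to Saline (0.972 to 1.59). Its fold of 1.532 against Buffer was just under the threshold. Ncf4, which encodes p40phox, had only 13, 11 and 29 reads and folds of 1.42 and 1.46, and its count ratios were 2.23 (1.12 to 4.67) and 2.63 (1.28 to 5.83).

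Over receptors and oxidase together, 6 of the 9 genes were higher in STZ than in Buffer and 0 were lower. Against Saline, 4 of the 9 were higher, Fcgr3a, Fcer1g, Ncf1 and Rac2, and 0 were lower, beside 2.04% and 1.75% of all genes. These 4 passed against both controls, as did 1.39% of all genes. In Saline against Buffer, 0 of the 9 passed in either direction, beside 1.00% higher and 0.429% lower of all genes. The median log2 fold change of the 9 was 0.91 for STZ to Buffer, beside 0.028 over the 14885 genes with a mean of at least 10 reads. It was 0.62 for STZ to Saline, beside 0.013, and 0.29 for Saline to Buffer, beside 0.016. The added 1 weighs on these medians, and the median log2 count ratio of the 9, which has no such term, was 1.80, 1.32 and 0.36. Both STZ comparisons use the same STZ library. Among all genes ranked by fold against Buffer, Rac2 was at rank 28, Ncf1 at 32, Fcgr3a at 37 and Fcer1g at 43, while Cyba was at 423 and Fcgr1a at 3844. The rank of Rac2 rests on FPKM that do not follow its reads. By count ratio to Buffer it stood at 5.04, below Ncf1 at 6.67 and Fcgr3a at 6.35.

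Counting intervals gave a wider call than the fold. In 7 of the 9 genes, all but Fcgr1a and Cyba, the interval of the count ratio lay above 1 against both controls, where 19.4% of the genes with a mean of at least 10 reads did so. Between the controls this was so for 2 of the 9, Fcer1g and Cybb, beside 15.9% of those genes. Over the 9 genes the Buffer library held 331 reads, the Saline library 397 and the STZ library 1324. The sum in STZ was 3.99 times that in Buffer (3.54 to 4.52) and 3.33 times that in Saline (2.97 to 3.73), and the sum in Saline was 1.2 times that in Buffer (1.03 to 1.39).

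**Figure D2:**
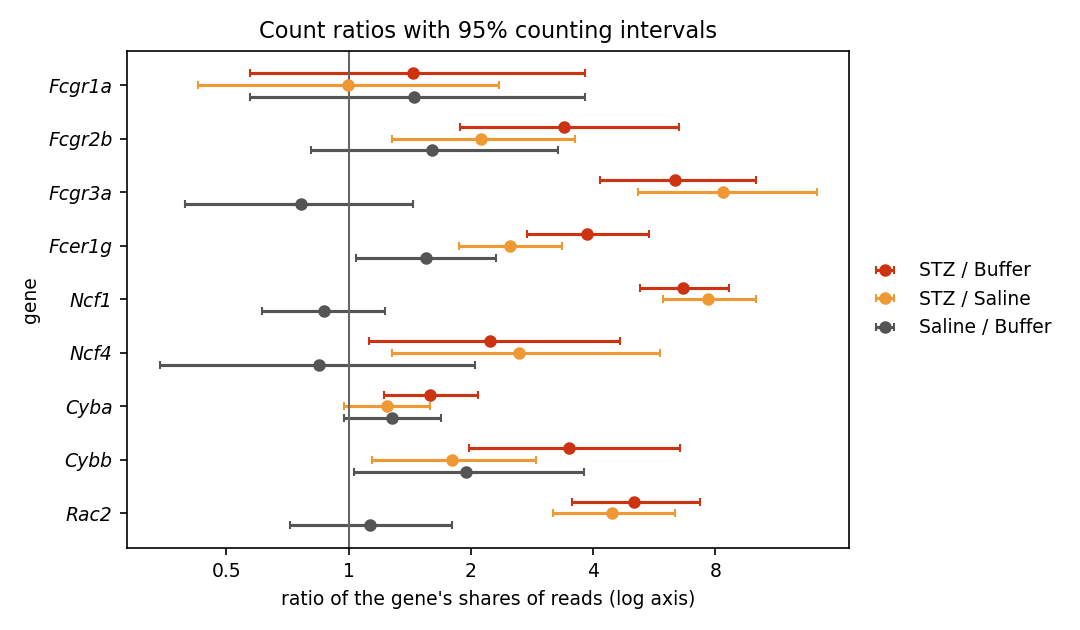
Ratio of each gene's shares of reads on a log axis, for STZ to Buffer, STZ to Saline and Saline to Buffer, with 95% counting intervals as bars. Ncf1 and Fcgr3a lie farthest to the right in both STZ comparisons, at 6.67 and 6.35 against Buffer, while the Saline to Buffer points of all 9 genes lie between 0.761 and 1.94.

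Some of the 9 genes differed from each other in count ratio by more than counting error, the only error the intervals cover. How often pairs of other genes differ in this way was not computed. Of the 36 pairs among the 9 genes, 10 were apart in both STZ comparisons, which share the STZ library. The 95% intervals were not adjusted over the pairs. In each of the 10 pairs except Fcer1g with Cyba, the gene with the larger ratio was Ncf1, Fcgr3a or Rac2. Between Saline and Buffer, 3 of the 36 pairs were apart. Within the oxidase, reads of Ncf1 per read of Cyba were 0.781 in Buffer, 0.528 in Saline and 3.27 in STZ, so that their balance in STZ was 4.19 times that in Buffer (2.9 to 6.05) and 6.2 times that in Saline (4.3 to 8.95). Per length, Cyba exceeded its partner Cybb 19.1 times in Buffer, 12.7 times in Saline and 8.69 times in STZ. Their balance in reads in STZ was 0.455 of that in Buffer (0.231 to 0.863). It was 0.689 of that in Saline, where the interval of 0.403 to 1.16 holds 1.

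Among the receptors, the FPKM of the inhibitory Fcgr2b was 0.509 of that of the activating Fcgr3a in Buffer, 1.02 in Saline and 0.272 in STZ. Their balance in reads in STZ was 0.254 of that in Saline (0.121 to 0.53), but 0.535 of that in Buffer, where the interval of 0.249 to 1.18 holds 1. The order of levels per length also changed. Cyba and then Fcer1g led in Buffer and Saline, each apart from the next gene beyond the counting intervals. In STZ, Fcer1g at 19.18 FPKM and Cyba at 14.86 overlapped in their intervals, and Rac2, Ncf1 and Fcgr3a followed within overlapping intervals of their neighbours, between 10.47 and 7.27 FPKM. Fcgr2b, Cybb, Ncf4 and Fcgr1a formed the low end in STZ, from 1.98 down to 0.58 FPKM.

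The markers of microglia and macrophages moved with these genes. Of 23 markers in the table, 20 were higher in STZ against both controls and 0 were lower, and together they had 3073 reads in Buffer, 3622 in Saline and 8796 in STZ. P2ry12, Itgam and Ptprc did not pass. Aif1, which encodes IBA1, was counted with 86, 95 and 273 reads. The median log2 fold change of the markers was 1.07 against Buffer and 0.95 against Saline. The part of these cells in the results on the 9 genes was not tested, and in a bulk library more cells of a type and more RNA per cell cannot be told apart. Each gene was therefore also counted per 1000 reads of the summed markers. The 9 genes together had 108 reads per 1000 marker reads in Buffer, 110 in Saline and 151 in STZ, a change of 1.4 times against Buffer (1.23 to 1.59) and 1.37 times against Saline (1.22 to 1.55). With Aif1 alone in place of the list, the changes were 1.26 (0.949 to 1.66) and 1.16 (0.885 to 1.51), and both intervals hold 1. Of the reads of the 9 genes, Ncf1 gave 75 of 331 in Buffer, 65 of 397 in Saline and 501 of 1324 in STZ. The changes per marker read of the summed genes without Ncf1 were not computed.

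Beside the markers the genes fell on both sides. Ncf1 had 24.4 reads per 1000 marker reads in Buffer, 17.9 in Saline and 57 in STZ, a change of 2.33 times (1.82 to 3.03) and 3.17 times (2.44 to 4.19). Fcgr3a changed by 2.22 times (1.45 to 3.54) and 3.45 times (2.13 to 5.88), and Rac2 by 1.77 times (1.24 to 2.58) and 1.84 times (1.31 to 2.63). The differences of these genes exceeded that of the marker sum, whose single genes also varied, with count ratios of STZ from 1.59 for P2ry12 to 5.62 for Mpeg1 against Buffer and from 1.48 for Itgam to 5.66 for Gpr34 against Saline. By point values, Ncf1 and Fcgr3a lay above these ranges and Rac2 within them. The counting intervals of Ncf1 and Fcgr3a overlapped those of Mpeg1 against Buffer (5 to 6.33) and Gpr34 against Saline (3.77 to 8.8). Cyba went the other way, with 31.2 reads per 1000 in Buffer, 34 in Saline and 17.4 in STZ, or 0.557 (0.427 to 0.729) and 0.512 (0.4 to 0.657) of the controls. For Fcgr2b, Fcer1g, Ncf4 and Cybb the intervals of both changes hold 1. For Fcgr1a, with its few reads, the change was 0.505 (0.199 to 1.34) and 0.412 (0.176 to 0.965).

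**Figure D3:**
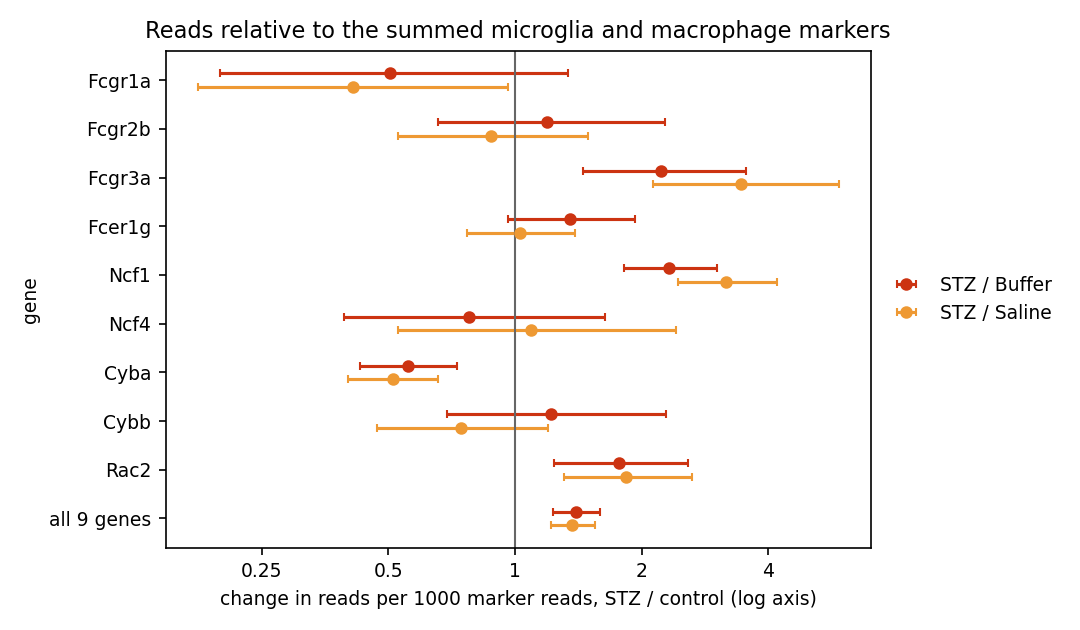
Change in each gene's reads per 1000 summed reads of 23 microglia and macrophage markers, STZ over Buffer and STZ over Saline, on a log axis with 95% counting intervals as bars. Ncf1, Fcgr3a and Rac2 lie to the right of 1 and Cyba to the left in both comparisons.

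Markers of other cell types that carry these genes were read in the same way, and their part in the results was not tested. The 12 neutrophil markers in the table summed to 188, 256 and 296 reads in the Buffer, Saline and STZ libraries. The granule gene Mpo had 0, 0 and 1 reads, S100a8 had 0, 2 and 3, and S100a9 had 0, 5 and 4. Most of the sum came from Lcn2, with 98, 139 and 143 reads, and Csf3r, the receptor for a granulocyte growth factor, with 36, 43 and 74. For Csf3r the count ratio of STZ was 2.05 to Buffer (1.36 to 3.15), with a fold under the threshold, and Ngp, with 18, 9 and 32 reads, passed against Saline at a fold of 1.82. The NK cell gene Nkg7 had 0, 1 and 0 reads, among 8 lymphocyte and NK markers that summed to 150, 193 and 241 reads, mostly from Cd4, which rat macrophages also express. Of the mast cell list, the proteases Tpsab1 and Tpsb2 had at most 2 reads in any library, Hdc had at most 4, and nearly all of its sum was Kit, which retinal cells express too. Border macrophage and monocyte genes summed to 174, 409 and 635 reads over 10 genes. The sum in STZ was 3.64 times that in Buffer (3.08 to 4.33) and 1.55 times that in Saline (1.37 to 1.76). Lyz2 alone gave 86, 195 and 456 of these reads, rounded from fractional counts, and was the 1 gene to pass against both controls. Ratios of the sum without Lyz2 were not computed. Across the 6 genes averaging at least 10 reads, the median log2 fold change was 0.35 for STZ to Buffer. For STZ to Saline it was -0.05. Mrc1 had 4 reads in Buffer, 43 in Saline and 41 in STZ, and Cd163 0, 14 and 1. Blood cell genes summed to 1018, 1412 and 784 reads, lowest in STZ.

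Other Fc receptors and the signaling genes below them were read from lists of the pathway. Of 7 other Fc receptor genes in the table, 2 were higher against both controls, Fcgr2a, an IgG receptor with fractional counts that round to 26, 58 and 123, and Fcrl2, a receptor-like gene, with 135, 176 and 574. The median log2 fold change of the 4 with a mean of at least 10 reads was 1.04 against Buffer and 0.6 against Saline. Fcgrt, the neonatal Fc receptor that transports IgG, had 40, 84 and 76 reads. Of 30 activating signaling genes, 6 were higher in STZ against Buffer, 4 against Saline and 0 lower in either. Tyrobp (DAP12), another adaptor with an activating motif, had the largest fold of these, 4.34 and 2.63, from 36, 63 and 180 reads. The others to pass against both controls were Vav1, a Rac exchange factor, with 16, 32 and 82 reads, and the adaptors Blnk, with 36, 50 and 119, and Lcp2, with 31, 28 and 104. Syk itself had 51, 77 and 129 reads and folds of 1.47 and 1.27, under the threshold.

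Of 13 inhibitory signaling genes, 4 were higher against both controls and Pag1 was lower against Saline, at 0.645. The phosphatases that act on Fc receptor signals were among the 4, with Inpp5d (SHIP1) at 66, 82 and 260 reads and folds of 2.14 and 1.95, and Ptpn6 (SHP-1) at 40, 53 and 138 reads and folds of 2.2 and 1.89. The other 2 were the inhibitory receptors Cd300a, with 5, 5 and 51 reads, and Clec12a, with 3, 3 and 14 reads and a count ratio of 4.66 (1.3 to 25.3) to either control, which is named after its values were seen. The median log2 fold change of the activating genes was 0.23 against Buffer and 0.25 against Saline. Over the 11 inhibitory genes with a mean of at least 10 reads, which leave out Clec12a, the median was 0.14 in both. Genes used in many cell types, such as Src with 4197, 4517 and 3983 reads and Ptpn11 with 7557, 7503 and 7161, were among those that did not pass.

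Of 25 further oxidase subunits and regulators, 4 were higher against Buffer, 1 against Saline and 0 against both. Over the 18 with a mean of at least 10 reads, the median log2 fold changes were 0.21 and 0.18. The proton channel gene Hvcn1 had 16, 41 and 43 reads and was as high in Saline as in STZ. Rac1, the ubiquitous relative of Rac2, was counted with 4257, 4329 and 4231 reads, a ratio of 0.992 to Buffer. Nox4, a catalytic relative of Cybb, had 33, 45 and 47 reads and folds of 1.09 and 0.971. Others higher against 1 control only were S100a8 and S100a9, with at most 5 reads in a library, and Arhgdib, an inhibitor of Rac GTPases that had 83, 70 and 128 reads and a fold of 1.67 against Saline.

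**Figure D4:**
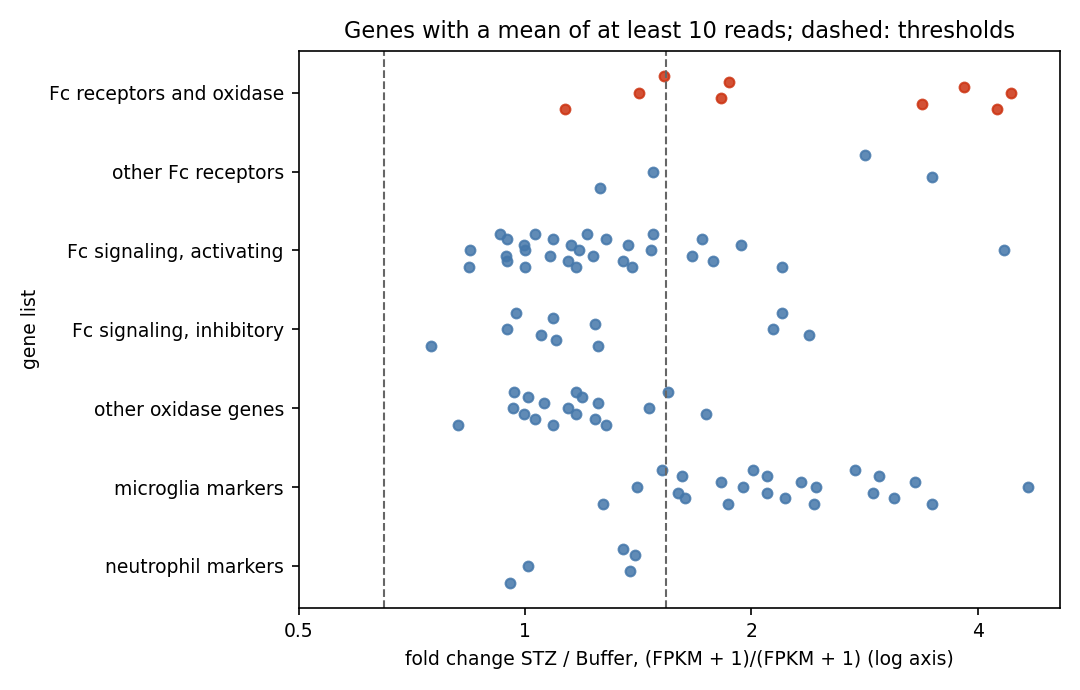
Fold change of STZ over Buffer, (FPKM + 1)/(FPKM + 1), on a log axis for the 9 genes (red) and for the genes of 6 other lists (blue) with a mean of at least 10 reads. Each point is 1 gene, vertical spread within a list has no meaning, and dashed lines mark 1.54 and 0.65. Points of the microglia markers lie mostly past 1.54 and those of the signaling and other oxidase lists mostly between the lines.

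The genes whose profile over the 3 libraries lay nearest to that of the summed 9 genes were sought among 12792 others with a mean of at least 50 reads and a read in every library. The measure was the Euclidean distance between the log2 count ratios of STZ to Buffer, STZ to Saline and Saline to Buffer. The nearest was Cd33, an inhibitory receptor of myeloid cells, at a distance of 0.0881 with 25, 31 and 105 reads, and then Inpp5d at 0.0916 and Fcrl2 at 0.153. Anxa3, Lcp1, Parvg, Cdkn1a, Ccng1, Trem2 and C1qc followed, up to a distance of 0.396. Cdkn1a and Ccng1, known as targets of p53, stand among them with 434, 449 and 1496 and with 1942, 1896 and 6882 reads. With only 3 libraries the measure separates few patterns.

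Promoter sequences were at hand for 4 of the 9 genes, Fcgr3a, Ncf1, Cyba and Cybb, from RefSeq on the assembly GRCr8, which is not the build the reads were mapped to. They are shown because the set holds the genes with the largest ratios and, in Cyba, one with a small ratio. The 140 bases before the annotated start are given 5′ to 3′ on the gene's strand, with capitals where searched letters occur. Fcgr3a lies on the plus strand (chr13:85782496-85782635), Ncf1 on the plus strand (chr12:28121745-28121884), Cyba on the minus strand (chr19:67404215-67404354) and Cybb on the minus strand (chrX:16065066-16065205).
Fcgr3a: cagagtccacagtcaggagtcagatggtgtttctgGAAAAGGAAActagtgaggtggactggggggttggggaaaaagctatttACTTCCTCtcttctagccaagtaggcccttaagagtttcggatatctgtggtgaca
Ncf1: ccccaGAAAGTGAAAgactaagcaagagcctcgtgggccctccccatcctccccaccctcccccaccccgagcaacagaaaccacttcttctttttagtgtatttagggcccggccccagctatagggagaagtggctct
Cyba: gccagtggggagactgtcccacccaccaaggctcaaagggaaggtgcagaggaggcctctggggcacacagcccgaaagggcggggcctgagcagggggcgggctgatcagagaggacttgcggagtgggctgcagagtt
Cybb: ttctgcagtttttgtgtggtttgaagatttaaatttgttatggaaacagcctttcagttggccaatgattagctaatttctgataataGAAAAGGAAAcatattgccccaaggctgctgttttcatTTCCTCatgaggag

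Letters known from sites of myeloid and immune factors were searched on both strands, over 250 bases before to 50 after the start. GAGGAA, the core of sites of the myeloid factor PU.1, was found in Fcgr3a and Cybb on the opposite strand and in 27.6% of the 33469 promoters of the table. The longer form GAGGAAGT, which contains that core, was found in Fcgr3a alone of the 4, where its first printed base lies 56 bases before the start, and in 2.42% of all promoters. The pattern of the interferon-stimulated response element, a pair of GAAA with 2 bases between them, was found in Fcgr3a, Ncf1 and Cybb, at 105, 135 and 52 bases before the start, and in 3.92% of all promoters. TTCNNNGAA, the pattern of STAT sites, was in none of the 4 and in 8.87% of all promoters. The TATA box letters TATAAA were in none of the 4 either, and in 14.2% of all promoters. None of the searched letters was in the Cyba promoter. These matches describe the letters only.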

How the data were processed

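Retinal RNA was sequenced in 3 libraries, 1 each of Buffer, Saline and STZ. According to the methods and the submitters' processing notes, the authors checked reads with FastQC, trimmed them, mapped them with TopHat2 to the rat genome (rn6), discarded reads with several locations and computed FPKM in R. The authors deposited FPKM, TPM and, per gene, an estimated count of reads. How the TPM and the fractional counts were made is not given in the sources used here. From 12.9% to 13.2% of counts per library are fractional, and all were rounded to whole numbers, while library totals are sums of the deposited counts.

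Folds were (FPKM + 1)/(FPKM + 1) with thresholds of 1.54 and 0.65. Count ratios have exact Clopper-Pearson intervals at 95%, levels exact Poisson intervals, and ratios between genes or to a marker sum exact conditional intervals. The reads carry no molecular identifiers and may be copies of one molecule, so intervals cover counting error only. The calculations were tested on simulated data. Promoters are from RefSeq (GRCr8), matched by symbol for 4 of the 9 genes.

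The 9 genes and all lists were chosen with earlier results of these data known. Named genes are the 9, genes of the pathway lists past a threshold against both controls and averaging at least 10 reads, fixed partners (Rac1, Syk, Tyrobp, Inpp5d, Hvcn1, Nox4, Fcgr2a, Aif1), examples of marker lists, and the 10 nearest profiles; other names were chosen after their values were seen. Fcgr3 and Cybc1 were not analysed here, and 1 further partner is not reported here. Folds were recomputed with a pseudocount of 0.1, thresholds of 2 and 0.5, TPM, CPM, the factors of edgeR 4.0.16 (TMM) and DESeq2 1.42.0 (median of ratios), a minimum mean of 50 reads, the mean of both controls and other marker sets. Python 3.11.15, numpy 2.4.6, pandas 2.3.3, scipy 1.17.1, matplotlib 3.10.9 and R 4.3.3 were used.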

Additional observations from a re-analysis of the deposited data

How the results depend on the processing

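No result on the 9 genes changed direction under the alternatives tried. Of the 75 values that summarise them, 70 stayed within set limits. The limits were 1.5 times the reported value for a count, the wide counting error of the middle gene for a median, and the counting interval otherwise. Many of the 70 were counts of 0 genes that stayed at 0. TPM and CPM each gave 6 genes higher in STZ against Saline in place of 4, a change that the limits allow. The pseudocount of 0.1 gave 7 genes higher in STZ against Saline in place of 4, and 2, Fcer1g and Cybb, higher in Saline against Buffer in place of 0. It moved the median log2 fold change from 0.91 to 1.62 against Buffer and from 0.62 to 1.19 against Saline, and gave 8 genes in place of 6 against Buffer, as did TPM, and thresholds of 2 and 0.5 gave 4. A minimum mean of 50 reads left 5 genes and raised the median log2 fold change to 1.94 against Buffer and 1.72 against Saline, over those 5 alone. With Aif1 in place of the marker list, reads per marker read changed by 1.16 times in STZ against Saline. The TMM and median-of-ratios factors left every number of genes past a threshold as it was. Without Ncf1, whose counts are fractional, 5 of 8 genes were higher against Buffer and 3 against Saline, an alternative chosen after seeing the data. Of 54 alternative values of single genes, 46 lay within counting error and 8 beyond it. With 1 library per condition, no replicate could be left out and the spread between animals is unknown. No paired analysis was possible because each condition has a single library. Fcgr1a and Ncf4, with at most 29 reads in a library, were limited by depth.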
